A study of Mus musculus with 8 samples.

Results

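The transcripts of 10 angiogenic and growth factors were followed in mouse bone marrow-derived macrophages (BMDM) cultured with bilirubin, namely *Vegfa*, *Vegfb*, *Pdgfa*, *Pdgfb*, *Igf1*, *Hgf*, *Hbegf*, *Thbs1*, *Ang* and *Csf1*. The list was chosen by function from a table of 53819 gene rows, with earlier results of the same bilirubin and vehicle libraries known. The differences given for these 10 genes therefore describe the libraries and are not independent evidence that growth factors respond. All 10 were in the table and all 10 passed the filter on low counts, each with a level above the filter's cutoff of 0.245 CPM, the count scaled to library size, in all 8 libraries.

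Bone marrow cells of 4 BALB/cJ mice aged 8 weeks were grown into BMDM over 5 days with 25 ng/mL of M-CSF, and per the methods the mice were female. Each mouse gave 1 culture with vehicle (DMSO) and 1 with 2.5 µM bilirubin for 48 hours, so that 4 vehicle and 4 bilirubin libraries were paired by mouse. Bilirubin is a breakdown product of heme, and the study asked how this metabolite alters macrophages. M-CSF is the protein product of *Csf1*, and it was present in both groups, so every culture was supplied with this factor as protein. Libraries held 34142781 to 47071714 estimated counts on genes, and the shallowest was the bilirubin library of mouse 1.

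Macrophages release growth factors that act on neighbouring endothelial, stromal and epithelial cells. VEGF family ligands bind receptor tyrosine kinases on endothelium, PDGF recruits pericytes and fibroblasts, and IGF-1, HGF and HB-EGF act through their own receptor tyrosine kinases. Thrombospondin-1 is an inhibitor of angiogenesis that binds CD36 and CD47, angiogenin is a secreted ribonuclease that promotes vessel growth, and M-CSF keeps macrophages alive.

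The 10 factors covered a wide range of levels in vehicle cultures. On the TPM scale, which corrects for transcript length and depth, *Igf1* led at 461 ± 18.6 TPM (SD, n = 4). *Pdgfa* at 59.9 ± 6.27 TPM, *Pdgfb* at 54 ± 1.69 TPM and *Vegfb* at 46.7 ± 2.89 TPM came next. The ranges of *Pdgfa* and *Pdgfb* overlapped, so their order was not resolved by these libraries. *Thbs1* at 11.4 ± 1.94 TPM, *Vegfa* at 9.53 ± 2.73 TPM and *Ang* at 9.45 ± 1.34 TPM overlapped one another. *Hgf* had 5.49 ± 0.681 TPM, *Csf1* 1.75 ± 0.43 TPM and *Hbegf* 0.738 ± 0.481 TPM, and the ranges of the last pair overlapped. With bilirubin, *Thbs1* at 4.56 ± 1.02 TPM and *Ang* at 4.17 ± 0.963 TPM stood below *Vegfa* at 10.3 ± 1.99 TPM, whereas all 3 had overlapped in vehicle.

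**Figure D1:**
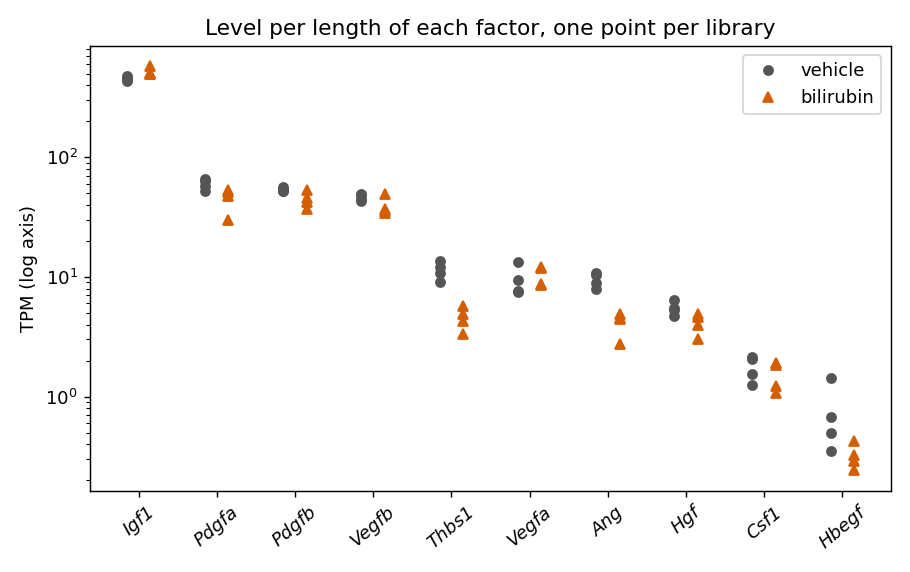
TPM of each factor (log axis) in the 4 vehicle libraries (grey circles) and the 4 bilirubin libraries (orange triangles), ordered by the vehicle mean. *Igf1* stood highest, with 439 to 483 TPM in vehicle, and *Hbegf* lowest, with 0.348 to 1.43 TPM.

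In the fit over all 13722 tested genes, 3 of the 10 factors passed an adjusted p of 0.05, against 7.53% of all tested genes. Of these 3, *Thbs1* and *Ang* were lower with bilirubin, a direction in which 3.04% of all tested genes passed. *Igf1* was higher, a direction in which 4.49% passed. The vehicle and bilirubin libraries did not overlap in CPM for 3 factors, against 10.6% of all tested genes. The median log2 fold change over the 10 factors was -0.30, beside 0 over all tested genes. Since RNA came from whole cultures, fewer cells of a type and less RNA per cell cannot be told apart.

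**Figure D2:**
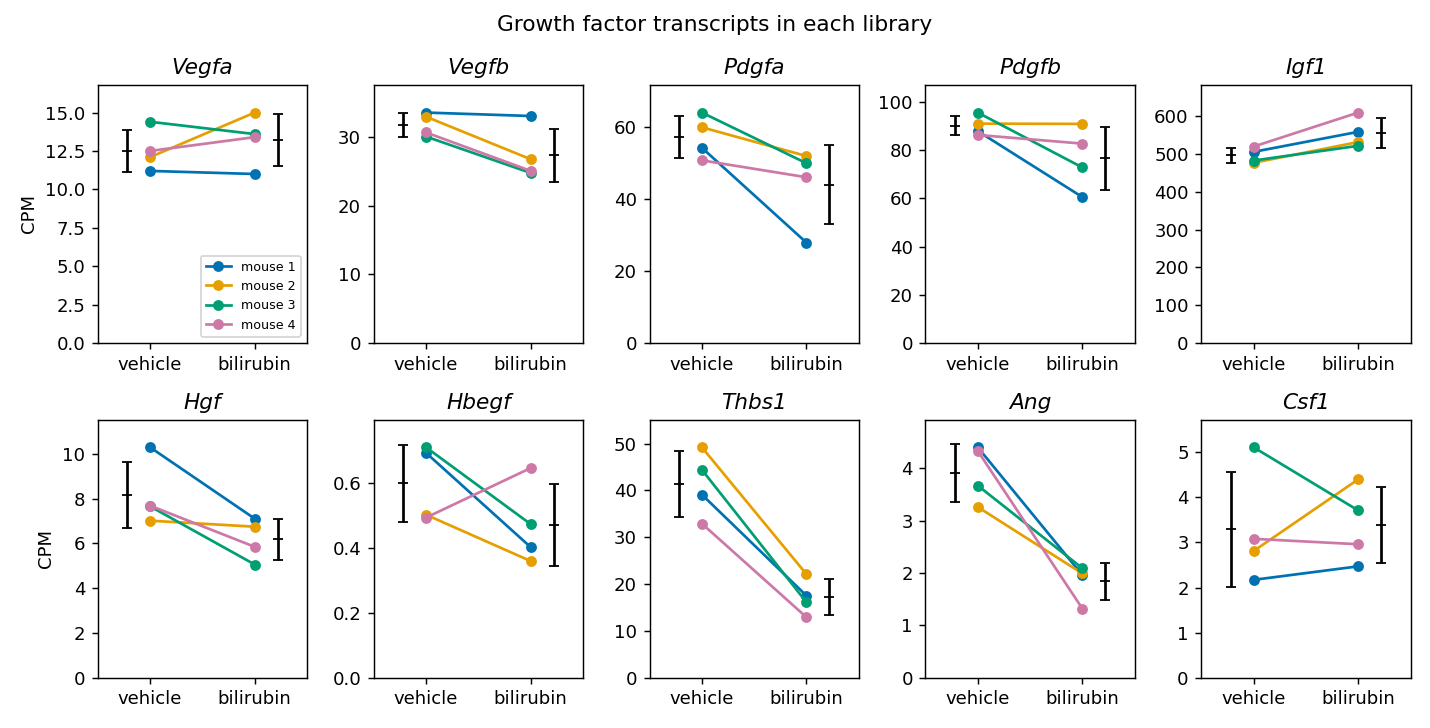
CPM of each factor in each library, with the cultures of 1 mouse joined by a line and the group mean and SD (n = 4) in black beside them. The lines of *Thbs1* and *Ang* fall in all 4 mice and end below every vehicle value, and those of *Igf1* rise in all 4.

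*Thbs1* (chr2:117941974-117957616, plus strand, GRCm39), the angiogenesis inhibitor, was the factor with the largest difference. In mice 1 to 4 its level was 39.1, 49.2, 44.4 and 32.9 CPM with vehicle, and 17.5, 22.1, 16.1 and 12.9 CPM with bilirubin. Every bilirubin value lay below every vehicle value, and mouse 2 was highest and mouse 4 lowest in both groups. The log2 fold change was -1.28 ± 0.06 (SE), a ratio of 0.412, and *Thbs1* ranked 13 of 13722 genes by p (adjusted p = 3.06e-05, edgeR quasi-likelihood test). The differences within mice were -1.16, -1.15, -1.46 and -1.34 on the log2 scale. In every library at least 99.9% of its estimated counts were on 1 coding transcript.

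The promoter of *Thbs1* is shown because its transcript differed most. The 250 bases before its annotated start, at chr2:117941724-117941973 on the plus strand, are given 5′ to 3′, with matches to the searched motifs in capitals.
Thbs1 upstream: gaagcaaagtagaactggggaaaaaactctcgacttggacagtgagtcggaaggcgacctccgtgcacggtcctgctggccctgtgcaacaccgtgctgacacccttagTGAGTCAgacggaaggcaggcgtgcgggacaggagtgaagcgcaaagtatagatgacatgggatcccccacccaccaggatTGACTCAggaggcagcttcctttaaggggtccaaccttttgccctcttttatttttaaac
The motifs searched on both strands were TATAAA (the TATA box), then GGGCGG (the GC box), then TGANTCA (the AP-1 element) and then CCAAT (the CCAAT box). The window held 2 matches to TGANTCA, beginning 141 and 60 bases before the start, and none to the other motifs. Of 21770 windows of the same length before protein-coding genes, 6.17% held TGANTCA at least once and 0.262% held it at 2 or more places. A match is a description of these letters and says nothing of binding in these cells.

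*Ang* (chr14:51328534-51341074, plus strand), the angiogenic ribonuclease, was also lower. It had 4.4, 3.26, 3.67 and 4.33 CPM with vehicle in mice 1 to 4, and 1.96, 1.99, 2.09 and 1.32 CPM with bilirubin. The groups did not overlap, and the bilirubin culture of mouse 4 was lowest. The log2 fold change was -1.09 ± 0.19 (SE), a ratio of 0.469 (adjusted p = 0.0118, edgeR). These values rest on 123 to 209 counts a library in vehicle and 53 to 84 with bilirubin. Without mouse 3 the adjusted p was 0.0589, and without mouse 4 it was 0.0534.

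*Ang* lies on the same strand as *Rnase4* (chr14:51328534-51343608), which encodes another secreted ribonuclease, and their annotated transcripts share both first exons. Reads in those exons cannot be assigned to 1 of the genes, so both are uncertain where the counting had to split them. *Rnase4* had 95.4, 86.0, 90.0 and 101 CPM in vehicle and 78.0, 43.4, 39.9 and 46.8 CPM with bilirubin, with no overlap. Its log2 fold change was -0.89 ± 0.13 (adjusted p = 0.00448, edgeR; 0.0517 without mouse 3). In mouse 1 the difference was -0.29 for *Rnase4* and -1.15 for *Ang*, while in mouse 2 it was -0.99 and -0.70. For *Rnase4*, 96.4% ± 2.95 of the counts in vehicle were on the transcript from the upstream start. For *Ang* this start held 66.4% ± 2.15 in vehicle and 57.9% ± 16.3 with bilirubin. That share rose from 68.3% to 82.4% in mouse 2, and it fell to 49.8, 49.9 and 49.3% in mice 1, 3 and 4. The 250 bases before that shared start are shown because both genes were lower, at chr14:51328284-51328533 on the plus strand, 5′ to 3′, with capitals as for *Thbs1*.
Ang and Rnase4 upstream: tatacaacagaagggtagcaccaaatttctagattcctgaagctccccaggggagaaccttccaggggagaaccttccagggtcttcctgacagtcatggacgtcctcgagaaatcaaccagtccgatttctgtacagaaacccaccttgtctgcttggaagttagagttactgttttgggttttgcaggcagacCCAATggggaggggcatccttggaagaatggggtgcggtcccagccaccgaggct
The window held 1 match to CCAAT, 55 bases before the start, which 36.5% of the windows of protein-coding genes held. It held no match to the other motifs, of which the TATA box was in 11.9% of windows, the GC box in 36.3% and the AP-1 element in 6.17%. The window before the second shared start was searched as well and is not printed. It held 1 match to TATAAA, 235 bases before that start, and none to the other motifs. The second start held 33.6% ± 2.15 of *Ang* counts in vehicle and 42.1% ± 16.3 with bilirubin.

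*Igf1* (chr10:87693642-87772904, plus strand), a growth and survival factor that macrophages also make, was the factor that was higher. With vehicle mice 1 to 4 had 506, 477, 483 and 520 CPM, and with bilirubin 559, 532, 522 and 610 CPM. The lowest bilirubin value was just above the highest vehicle value. The log2 fold change was 0.16 ± 0.03 (SE), a ratio of 1.12 (adjusted p = 0.0233, edgeR). Leaving out mouse 2 or mouse 3 gave an adjusted p of 0.10, and leaving out mouse 4 gave 0.18. It was 0.135 when mouse was not in the model and 0.0574 with an offset for transcript length, so this call depended on these choices.

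Among the other PDGF and VEGF genes, *Pdgfa*, *Pdgfb* and *Vegfb* had lower fitted levels with bilirubin but did not pass the adjusted threshold. *Pdgfa* (chr5:138961758-138983435, minus strand), the PDGF A chain, had 54.3, 60.0, 64.1 and 50.8 CPM in vehicle and 27.9, 52.0, 50.0 and 46.1 CPM with bilirubin. The bilirubin culture of mouse 1 stood well below the others, and the groups overlapped. The log2 fold change was -0.41 ± 0.12 (adjusted p = 0.0812, edgeR), and it was -0.24 without mouse 1 (adjusted p = 0.00663). *Pdgfb* (chr15:79880009-79899181, minus strand), the B chain, had 88.0, 91.1, 95.7 and 86.4 CPM in vehicle and 60.6, 91.0, 72.9 and 82.8 CPM with bilirubin. The cultures of mouse 2 were level, the other mice were lower, and the fitted change was -0.25 ± 0.08 (adjusted p = 0.138, edgeR). DESeq2 gave *Pdgfb* an adjusted p of 0.0439. *Vegfb* (chr19:6958447-6965127, minus strand), a ligand of VEGFR1, had 33.6, 33.0, 30.1 and 30.7 CPM in vehicle and 33.1, 26.8, 24.8 and 25.1 CPM with bilirubin. Mouse 1 was nearly level while the other mice were lower, and the fitted change was -0.22 ± 0.06 (adjusted p = 0.0678, edgeR; 0.00201 without mouse 1).

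*Hgf* (chr5:16758041-16828178, plus strand), the ligand of MET, had 10.3, 7.02, 7.66 and 7.69 CPM in vehicle and 7.11, 6.75, 5.06 and 5.85 CPM with bilirubin. The values were lower in all 4 mice, the groups overlapped, and the log2 fold change of -0.40 ± 0.11 did not pass (adjusted p = 0.0735, edgeR). Without mouse 2, which differed by only -0.06, the adjusted p was 0.0456.

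*Vegfa*, *Csf1* and *Hbegf* gave no change that passed. *Vegfa* (chr17:46327919-46343309, minus strand), the main angiogenic VEGF, had 11.2, 12.1, 14.4 and 12.5 CPM in vehicle and 11, 15, 13.6 and 13.4 CPM with bilirubin. It was higher in 2 mice and lower in the other 2, and the 95% interval of its log2 fold change was -0.11 to 0.26. *Csf1* (chr3:107648364-107667806, minus strand) had 2.17, 2.81, 5.11 and 3.08 CPM in vehicle and 2.47, 4.4, 3.71 and 2.96 CPM with bilirubin, with an interval of -0.37 to 0.51. *Hbegf* (chr18:36637980-36649677, minus strand), an EGF receptor ligand shed from the membrane, had 13 to 33 counts a library. It was lower in 3 mice and higher in mouse 4. Its interval was -1.10 to 0.39, so changes within this range were not excluded.

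**Figure D3:**
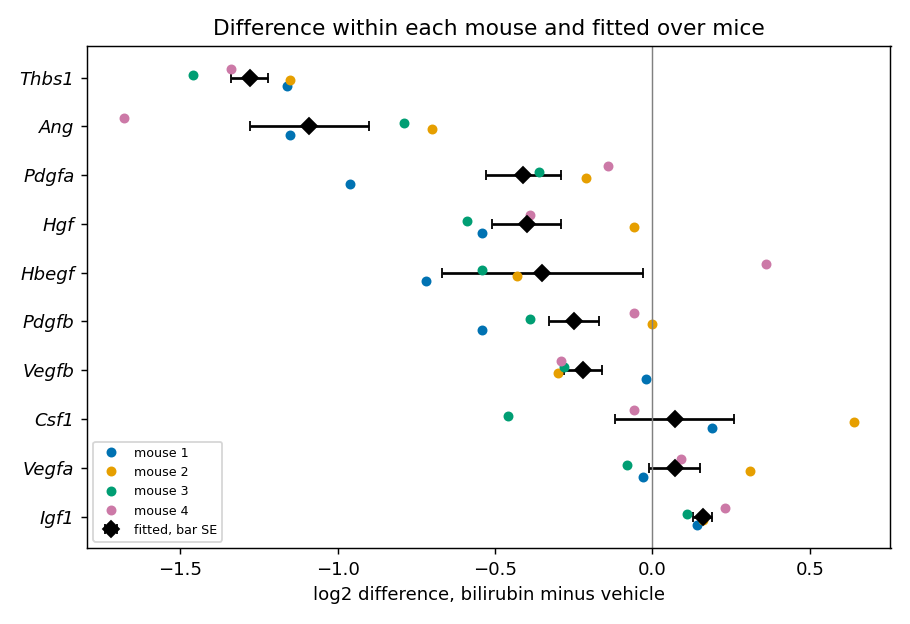
Log2 difference between the bilirubin and the vehicle culture of each mouse (coloured points), with the fitted log2 fold change and its SE (black diamonds). The fitted values of *Thbs1* and *Ang* lie left of those of the other factors, the points of *Csf1* spread from -0.46 to 0.64, and the *Pdgfa* point of mouse 1 lies at -0.96.

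Alternative splicing changes how VEGF and PDGF proteins are held by heparan sulfate and matrix, and changes the E peptide of the IGF-1 precursor. The stretches that tell the coding forms apart are printed for that reason. They are shown 5′ to 3′ on the minus strand, except *Igf1* on the plus strand, with no base in capitals. The *Vegfa* exon of the heparin-binding forms lies at chr17:46331917-46332048, and the exon added in the longer basic form at chr17:46333203-46333274. The *Vegfb* stretch at chr19:6962864-6962964 belongs to the soluble form, the *Pdgfa* coding stretch at chr5:138964393-138964445 to the long form with a basic tail, and the *Igf1* exon at chr10:87751160-87751211 to the Eb form.
Vegfa heparin-binding exon: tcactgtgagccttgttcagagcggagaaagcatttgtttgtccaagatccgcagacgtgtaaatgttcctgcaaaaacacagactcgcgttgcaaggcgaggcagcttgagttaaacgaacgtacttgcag
Vegfa basic exon: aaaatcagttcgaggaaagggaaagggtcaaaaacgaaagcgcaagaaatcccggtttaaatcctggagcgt
Vegfb soluble-form stretch: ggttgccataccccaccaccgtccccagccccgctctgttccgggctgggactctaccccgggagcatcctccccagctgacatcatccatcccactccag
Pdgfa long-form stretch: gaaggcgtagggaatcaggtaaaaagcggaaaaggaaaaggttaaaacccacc
Igf1 Eb exon: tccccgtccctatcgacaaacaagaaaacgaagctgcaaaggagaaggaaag

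Shares of estimated counts on coding transcripts that span each stretch overlapped between groups for all 5 stretches. The *Vegfa* heparin-binding exon was in 77.8% ± 15.6 of counts in vehicle and 75.5% ± 7.7 with bilirubin. The *Vegfa* basic exon was in 6.09% ± 4.28 and 13.9% ± 6.04, and it ranged from 0 to 20.1% over single libraries. The *Vegfb* soluble-form stretch was in 66.7% ± 1.65 in vehicle and 64.7% ± 1.24 with bilirubin, lower in all 4 mice. The *Pdgfa* long form made 45.1% ± 2.24 and 47% ± 2.56, and the *Igf1* Eb exon 22.5% ± 0.586 and 24.6% ± 2.89. Both were higher in 3 mice and lower in mouse 1. These counts are not scaled for transcript length, so the shares are not shares of molecules. For *Igf1* the main transcript without the Eb exon was 7052 bases long, and the main one with it 651 bases. No test was made of these shares, which are given as a description.

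**Figure D4:**
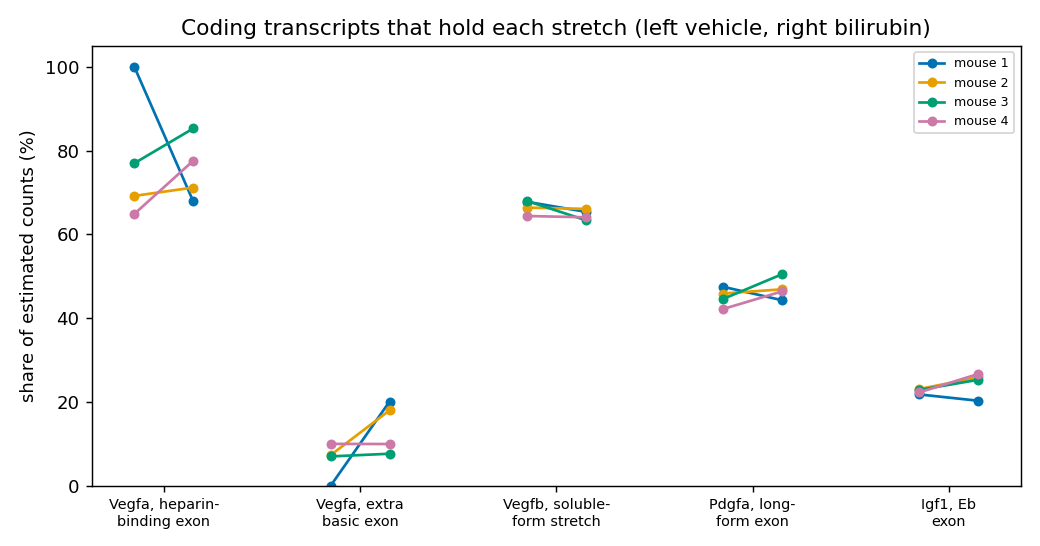
Share of estimated counts (%) on coding transcripts that hold each stretch, with each mouse's vehicle culture on the left joined to its bilirubin culture on the right. The *Vegfb*, *Pdgfa* and *Igf1* shares sit in narrow bands, while the *Vegfa* heparin-binding exon spans 64.9 to 100%.

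Receptors of these factors and related surface proteins were followed from a list of 22 genes, of which 19 were tested and 7 passed, against 7.53% of all tested genes. Of these, 4 were lower and 3 higher, against 3.04% and 4.49% of all tested genes, and the list median log2 fold change was -0.03. *Flt1*, which encodes VEGFR1, fell from 16.8 ± 1.96 to 9.08 ± 1.31 CPM, a log2 fold change of -0.89 ± 0.08 (adjusted p = 0.000562, edgeR). *Nrp1*, a VEGF co-receptor, fell from 283 ± 9.7 to 216 ± 11.1 CPM (-0.39 ± 0.04, adjusted p = 0.000799, edgeR). Both showed no overlap between groups. The LDL receptor family genes *Lrp1* and *Lrp5* also fell, by 0.28 and 0.32 on the log2 scale, and *Lrp5* was named after its value was seen. Without mouse 3 the adjusted p of *Lrp5* was 0.0646 in edgeR. *Met*, the HGF receptor, rose from 35.1 ± 3.86 to 63 ± 15.6 CPM (0.82 ± 0.12, adjusted p = 0.00408, edgeR; 0.0555 without mouse 3). *Cd47*, a thrombospondin-1 receptor, rose from 144 ± 2.26 to 180 ± 7.44 CPM (0.32 ± 0.04, adjusted p = 0.00139, edgeR), and *Sdc1*, the proteoglycan syndecan-1, from 19.9 ± 4.9 to 63.3 ± 25 CPM. With the transcript length offset *Met* (adjusted p = 0.0965) and *Lrp1* (adjusted p = 0.0874) did not pass in edgeR. The other thrombospondin-1 receptor gene, *Cd36*, had a log2 fold change of -0.16 ± 0.10 that did not pass. *Csf1r* (-0.02), *Igf1r* (-0.03), *Pdgfrb* (0.18) and *Egfr* (0.43) did not pass either.

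**Figure D5:**
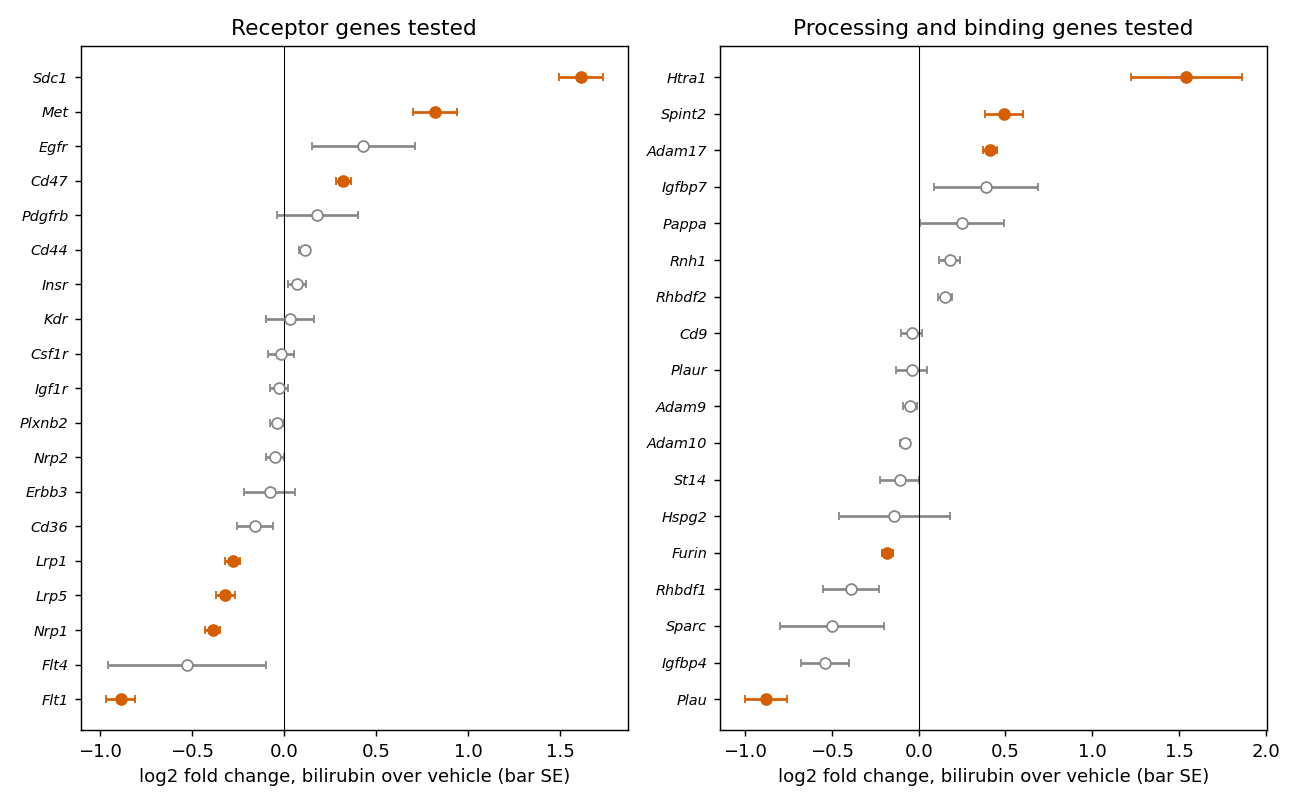
Log2 fold change (bilirubin over vehicle, bar SE) of the 19 tested genes of the receptor list and the 18 tested processing and binding genes, with those at an adjusted p under 0.05 filled in orange. *Flt1* and *Plau* lie lowest, and *Sdc1* and *Htra1* highest.

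Genes that process or bind the factors numbered 32, of which 18 were tested and 5 passed, 2 lower and 3 higher, with a median of -0.04, against 7.53% of all tested genes passing, 3.04% lower and 4.49% higher. *Plau*, the urokinase that can activate pro-HGF, fell from 1390 ± 109 to 777 ± 206 CPM (-0.88 ± 0.12, adjusted p = 0.00308, edgeR). *Furin*, a protease that matures PDGF precursors, fell by 0.18 (adjusted p = 0.0154, edgeR). *Adam17*, the sheddase of HB-EGF and of membrane M-CSF, rose from 280 ± 10.8 to 371 ± 24.9 CPM (0.41 ± 0.04, adjusted p = 0.000604, edgeR). *Htra1*, a secreted protease, rose by 1.54 ± 0.32 from a level of 0.516 CPM, and *Spint2*, an inhibitor of HGF activation, by 0.49 ± 0.11. The calls of *Furin*, *Htra1* and *Spint2* were lost without mouse 2 (adjusted p = 0.0674, 0.0899 and 0.07, edgeR), without mouse 3 and with the length offset. Those of *Furin* and *Spint2* were also lost without mouse 4 (adjusted p = 0.0886 and 0.11, edgeR), and that of *Furin* without mouse in the model (adjusted p = 0.0606, edgeR).

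Of 44 other growth and angiogenic factors, 21 were tested and 2 passed, both lower, a direction in which 3.04% of all tested genes passed. The list median was -0.11. The count of 2 is close to the 7.53% of all tested genes that passed in either direction and is not a result about these factors as a group. *Gdf15*, a stress-induced cytokine, fell from 4.09 ± 0.558 to 1.98 ± 0.66 CPM (-1.08 ± 0.18, adjusted p = 0.00883, edgeR; 0.0636 without mouse 3 and 0.0529 without mouse 4). *Fgf2* had 0.586 ± 0.24 CPM in vehicle and 0.165 ± 0.102 with bilirubin (adjusted p = 0.0285, edgeR), and its bilirubin mean was under the filter's cutoff, so it was tested largely through its vehicle level. Its call was lost without mouse 2, 3 or 4 (adjusted p = 0.0642, 0.197 and 0.116, edgeR). The call of *Fgf2* was also lost without mouse in the model and with the length offset (adjusted p = 0.0542 and 0.0559, edgeR). Among the 20 hypoxia response genes, a program that induces *Vegfa*, all 20 were tested and 5 passed, against 7.53% of all tested genes, with a median of 0.06. Of the 5, 2 were lower and 3 higher, against 3.04% and 4.49% of all tested genes. The glycolytic genes *Pgk1* (0.35), *Aldoa* (0.28) and *Ldha* (0.26) rose, while *Epas1*, which encodes HIF-2α, fell by 0.73 and *Pfkfb3*, a regulator of glycolysis, by 0.34. *Aldoa*, *Ldha* and *Pfkfb3* did not pass without mouse 3 or without mouse 4. *Ldha* also did not pass without mouse 2 (adjusted p = 0.0526, edgeR). Without mouse in the model, *Ldha* (adjusted p = 0.0699) and *Pfkfb3* (adjusted p = 0.164) did not pass in edgeR.

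Summed macrophage markers stood at 24300 to 24600 CPM in vehicle and 28700 to 30800 CPM with bilirubin, mainly through *Lyz2*. Of these 10 markers 4 passed, all higher, against 7.53% of all tested genes passing and 4.49% passing higher. The fitted changes of the other 6 were below 0, from -0.46 for *Cd163* to -0.02 for *Csf1r*, with a list median of -0.08. Platelets also carry thrombospondin-1 and PDGF. Their 8 markers summed to 51.6 to 61.8 CPM in vehicle and 33.7 to 43.1 CPM with bilirubin, almost wholly from *Pf4*, which macrophages also express, while *Gp1bb* was at 0 in all libraries. *Pf4* was the only platelet marker tested, and it passed with a log2 fold change of -0.54 (adjusted p = 0.000543, edgeR). Neutrophil markers summed to 11.5 to 14.2 CPM and 20.2 to 32.8 CPM, mainly from *S100a8*. Of the 3 neutrophil markers tested 1 passed, against 7.53% of all tested genes. This was *S100a8*, which rose by 1.07 (adjusted p = 0.000334, edgeR), while *Mpo* (0.54) and *Cxcr2* (-0.27) did not pass. Fibroblast markers summed to 1.58 to 7.29 CPM and 0.97 to 6.41 CPM with *Lum* at 0, and the sum was lower with bilirubin in each mouse. Of the 3 fibroblast markers tested 0 passed, against 7.53% of all tested genes, with a median log2 fold change of -1. Lymphoid markers summed to 0.504 to 0.768 CPM and 0.581 to 1.29 CPM with *Ncr1* at 0. Endothelial markers summed to 111 to 134 CPM and 114 to 136 CPM, mainly from *Vwf*. Of the 5 endothelial markers tested 1 passed, against 7.53% of all tested genes. This was *Esam*, which rose by 0.81 on the log2 scale (adjusted p = 0.00818, edgeR). The fitted changes of *Tie1* (-0.64), *Cdh5* (-0.31), *Vwf* (-0.11) and *Kdr* (0.03) did not pass, and the list median was -0.11. The part of these markers in the results was not tested.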

How the data were processed

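Poly(A) RNA of 8 BMDM cultures was sequenced as paired-end reads. The authors trimmed reads with Trim Galore 0.6.7 and Cutadapt 3.4, aligned them with STAR 2.7.9a to GRCm39 and quantified transcripts with Salmon 1.10.1. They deposited Salmon's estimated counts (expected counts) per gene, and per transcript the estimated counts, TPM and effective length. The gene counts carry no scaling for depth or length, so shifts between transcripts of unequal length can move them.

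Counts were rounded and fitted with R 4.3.3 and edgeR 4.0.16, using TMM scaling, filterByExpr (10 counts, 15 in total), mouse and treatment in the model, the quasi-likelihood test and Benjamini-Hochberg adjustment over 13722 genes, with a threshold of 0.05. SE was the fold change divided by the square root of F. Within-mouse differences are log2 CPM with a prior count of 2. The pairing comes from the culture number in the labels, which 1 vehicle and 1 bilirubin culture share. That each number is 1 mouse was taken from the paper, whose fit used the mouse as a covariate. After subtracting group means, both cultures of a mouse correlated at 0.108, 0.134, 0.108 and -0.005 for mice 1 to 4, against at most 0.075 between mice. Alternatives were no mouse term, DESeq2 1.42.0, limma-voom 3.58.1, other scaling, other filters, a transcript length offset and each mouse left out. The fits were tested on simulated data.

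The 10 factors and all gene lists were chosen with earlier results of these data known. All 10 factors were named, as were up to 6 passing genes a list by smallest adjusted p, *Rnase4* and the receptors *Flt1*, *Nrp1*, *Pdgfrb*, *Igf1r*, *Met*, *Egfr*, *Cd36*, *Cd47* and *Csf1r*. The 2 genes of most similar pattern were found for each factor, and they are given only for *Thbs1*, *Ang* and *Igf1*, which passed. Positions and sequences came from GRCm39 with the GENCODE M39 annotation. The authors used Ensembl annotation, whose transcript ends differ for several genes.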

Additional observations from a re-analysis of the deposited data

Results flagged for a closer look

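The *Csf1r* level in the bilirubin culture of mouse 1 was 1840 CPM, while the other 3 bilirubin cultures had 1330, 1390 and 1400 CPM. Its gap to the nearest culture was 0.861 of the group's range, above Dixon's 95% critical value for 4 samples. This was 1 of 68 groups of 4 examined over the named genes, and chance flags about 1 in 20 groups.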

How the results depend on the processing

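*Thbs1* passed in all 12 alternatives (log2 fold change -1.32 to -1.22), *Ang* in 10 of 12 and *Igf1* in 7 of 12. With no replicate block, so without the pairing by mouse, 2 factors passed in place of 3 (*Igf1* at adjusted p = 0.135), 686 genes in place of 1033, 1 other growth factor in place of 2 and 3 hypoxia genes in place of 5. DESeq2 passed 4 factors, adding *Pdgfb*, and library size alone 4, adding *Pdgfa*. Without a filter, 7 factors, 6 other growth factors and 9 hypoxia genes passed, of 1692 genes among 26021 tested. With a CPM above 1 in 4 libraries 1 other growth factor passed, and *Fgf2*, with at most 0.871 CPM, was not tested there. With the transcript length offset 1 other growth factor and 3 processing genes passed, of 575 genes. The cause of the other shifts was not tested. Leaving out each mouse in turn gave 1 to 5 factors, 0 to 5 other growth factors, 2 to 8 processing genes and 2 to 11 hypoxia genes, and 1910, 634, 377 and 441 genes in all without mice 1 to 4. Without mouse 1 *Vegfb* and *Pdgfa* also passed, and without mouse 3 or 4 *Thbs1* was the 1 factor that did. Values near 0 reversed, namely *Csf1* (-0.17) and *Igf1r* (0.04) with the length offset, and with mice left out in turn *Vegfa* (0 to 0.13), *Csf1* (-0.12 to 0.26), *Pdgfrb* (-0.05 to 0.34) and *Csf1r* (-0.11 to 0.03). The ratio of the highest to the lowest factor in vehicle was 625 by TPM and 955 by CPM per kilobase, with the same order of factors. Depth limits factors with few counts, such as *Hbegf*.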

Other observations

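By Pearson's r over the 8 libraries of log2 CPM centred on each mouse, the genes closest to *Thbs1* were *Hspbp1* (0.9994) and *Tpd52* (0.9990), those closest to *Ang* were *Osm* (0.9990) and *Sesn2* (0.9982), and those closest to *Igf1* were *Dtd1* (0.9990) and *Serp1* (0.9982), among 10897 genes. Centring leaves 4 independent differences, and these values are the 2 highest of 10897 for each factor, so they are given as a description. *Vegfc*, singled out after its values were seen, had 0.589, 0, 0.481 and 0.0235 CPM in vehicle and 0.633, 0.886, 2.24 and 1.77 CPM with bilirubin, higher in all 4 mice, and did not pass (adjusted p = 0.107, edgeR). It was above the filter's cutoff of 0.245 CPM in every bilirubin library but in only 6 of 8 libraries, so it was tested largely through its bilirubin level. *Vegfc* passed in 2 of 11 alternatives, among them the fit without mouse 1 (adjusted p = 0.00291, edgeR).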
